A study of Mus musculus with 9 samples.

Results

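The 9 genes described here belong to the calcium pathway that drives egg activation, measured in fresh and in frozen mouse oocytes: Itpr1, Atp2a2, Atp2b1, Trpm7, Cacna1h, Orai1, Calm2, Calm3 and Camk2g. They were chosen by name from a rule on calcium release, pumps, influx channels, calmodulins and the calmodulin kinase that uses no measured value, with earlier results of these data known. They are 9 of the 26358 genes in the expression table, and all 9 passed the filter on low counts that left 17545 genes to test. Poly(A) RNA of oocytes was sequenced in 9 libraries, 3 for each of 3 groups, and the labels give neither strain, age nor maturation stage. Fresh oocytes were not frozen. The cryopreservation-1 group used a cryotop as carrier, with ethylene glycol (EG) at 15%, DMSO at 15% and sucrose at 0.5 M. The cryopreservation-2 group used a straw as carrier, with EG at 17.5%, trehalose at 1 M and PVA/Fe3O4/GO nanoparticles. Carrier, solutes and particles changed together between the methods, so their parts cannot be told apart.

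At fertilization the egg's calcium rises in repeated waves. Inositol trisphosphate opens the type 1 receptor encoded by Itpr1 in the endoplasmic reticulum, the SERCA pump encoded by Atp2a2 refills the store, and the plasma membrane pump encoded by Atp2b1 pushes calcium out of the cell. Channels of the plasma membrane, among them TRPM7 and the T-type channel CaV3.2 encoded by Cacna1h, let calcium in to sustain the waves. Calmodulin binds the calcium and switches on calmodulin kinase II gamma, encoded by Camk2g, which leads to degradation of the meiotic inhibitor EMI2 and exit from meiosis.

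Calm2 and Calm3 both encode calmodulin, and their sequences show how reads of the 2 genes can be told apart. Over the 447 coding bases the transcripts were 82.6% identical, with 78 differing bases, 74 of them at the third codon position. None of the 149 encoded residues differed, and the longest run of identical bases was 17. The exon segment that carries coding bases 35 to 178 is shown for both genes on the transcript strand (GENCODE transcripts, GRCm38), at chr17:87435791-87435934 on the minus strand for Calm2 and chr7:16917585-16917728 on the minus strand for Calm3. Capitals mark the 24 bases of the 144 that differ.
Calm2: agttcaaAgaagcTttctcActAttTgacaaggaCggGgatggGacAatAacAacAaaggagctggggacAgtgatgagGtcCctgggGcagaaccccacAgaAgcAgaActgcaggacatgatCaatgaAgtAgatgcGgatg
Calm3: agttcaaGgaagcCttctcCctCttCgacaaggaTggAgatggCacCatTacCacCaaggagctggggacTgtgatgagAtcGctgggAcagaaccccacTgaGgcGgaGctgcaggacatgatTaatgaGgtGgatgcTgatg
The 2 genes therefore encode the same protein with differences spread along the coding sequence.

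Stored oocyte messages often carry a cytoplasmic polyadenylation element close to the 3′ end, and poly(A) selection reads messages by their tails. TTTTAT or TTTTAAT was searched on the transcript strand in the last 100 bases of each member's longest coding transcript. It was found in 2 of 9 members, Atp2a2 and Atp2b1, and in 19.421% of 13434 protein-coding transcripts of tested genes. The windows lie at chr5:122456412-122456441 on the minus strand and chr10:99026057-99026086 on the plus strand (GRCm38), 84 and 69 bases from the end of the transcript, with the motif in capitals. The Atp2a2 gene in the deposited table runs on past the end of this transcript, to chr5:122453513-122502174, so the window is not at the 3′ end of the gene as counted.
Atp2a2: atgtctaatgtaTTTTATtgtaacagacat
Atp2b1: agccactgagccTTTTATtatttgtctatt
A poly(A) signal, AATAAA or ATTAAA, lay in the last 50 bases of all 9 members and of 78.249% of those transcripts. These matches describe letters in the sequence and no measured tail.

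Total counts lay between 49337232 and 80877288 per library and were lowest in cryopreservation-2. Fresh replicate 3, cryopreservation-1 replicate 3 and cryopreservation-2 replicate 1 stood apart, since 9108, 8421 and 8667 genes had no count there, and 7744 or fewer elsewhere. The 18 oocyte markers took 1.65 to 2.51% of counts, with Gdf9 at 274031 counts or more in every library. The 11 cumulus and granulosa cell markers took 0.0942 to 0.125% (fresh), 0.102 to 0.125% (cryopreservation-1) and 0.112 to 0.175% (cryopreservation-2), so the ranges overlapped. Ptx3, Ptprc and Col1a1, which mark cumulus cells, blood cells and stroma, reached at most 14, 7 and 4 counts, while the granulosa marker Fshr held 15 to 108 counts and the endothelial marker Pecam1 held 3634 to 10767. Ptx3 and Fshr were a small part of the counts of the cumulus and granulosa list, whose other genes are not shown singly. Levels below are TMM-scaled CPM, counts relative to library size, with the SD over 3 libraries. Changes are log2 fold changes with their standard error (SE) from edgeR's quasi-likelihood test, and a gene was called at a Benjamini-Hochberg adjusted p under 0.05 over all genes tested. In bulk samples, less RNA per oocyte and fewer oocytes with the RNA cannot be told apart.

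Calm2 was the only member that edgeR called. Its libraries read 20.2, 39.1 and 19.7 CPM in fresh, 23.3, 28.2 and 23.1 CPM in cryopreservation-1, and 146.4, 81.2 and 115.0 CPM in cryopreservation-2. Every cryopreservation-2 library lay above every other library, while fresh and cryopreservation-1 overlapped. The level was 114.2 ± 32.6 CPM (SD, n = 3) in cryopreservation-2 and 26.3 ± 11.1 CPM (SD, n = 3) in fresh, a log2 fold change of 2.12 (SE 0.32, 4.34-fold, edgeR adjusted p = 0.009161). Against cryopreservation-1, at 24.9 ± 2.88 CPM (SD, n = 3), it was 2.20 (SE 0.33, 4.60-fold, edgeR adjusted p = 0.01277). The fold stayed at 1.83 or above (log2) in both comparisons under all 20 alternatives run, but the call did not. With the 3 libraries that stood apart left out, the adjusted p was 0.0619 against fresh and 0.0781 against cryopreservation-1. With the 2 groups alone and the replicate number as a block it was 0.143 and 0.0795. The call against cryopreservation-1 was also lost without cryopreservation-1 replicate 1 (edgeR adjusted p = 0.0754) and without its replicate 3 (edgeR adjusted p = 0.0731).

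Calm2 lies on the minus strand at chr17:87433412-87446935 in the deposited table (GRCm38) and has 6 exons. Its processed pseudogene Gm7308, 96.9% identical over the coding bases, took 4 to 51 counts, against 1397 to 7640 for Calm2. Its transcript is short, at 1205 bases, the 20.85th percentile of tested genes. Genes called higher in cryopreservation-2 against fresh had a median length of 1582.5 bases, those called lower 3028 bases and all tested genes 2544 bases. Members lower in cryopreservation-2 than in fresh without overlap were Camk2g, Atp2b1 and Trpm7, at 3703, 7130 and 7107 bases. Members higher without overlap were Calm2, Calm3 and Cacna1h, at 1205, 2290 and 8230 bases. The part of length in these differences was not tested beyond a fit with a GC content and length offset, which kept the Calm2 call in both comparisons. The part of cumulus cell RNA was not tested either; the shares of its markers are those given above.

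Calm3 encodes the same protein and was low, with 35 to 102 counts per library. It read 1.09, 0.604 and 0.846 CPM in fresh, 0.790, 1.15 and 0.564 CPM in cryopreservation-1, and 1.59, 1.75 and 1.70 CPM in cryopreservation-2. The gene spans chr7:16915379-16924114 on the minus strand. The cryopreservation-2 libraries were all above the others, yet the log2 difference of 0.99 from fresh (SE 0.57, edgeR adjusted p = 0.3541) did not pass. Its 95% interval ran from -0.27 to 2.25. Of the summed FPKM of Calm2 and Calm3, a unit per length, Calm2 took 97.8% (fresh), 98.1% (cryopreservation-1) and 99.1% (cryopreservation-2).

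Camk2g, the kinase that reads the calmodulin signal, had 338.2, 332.8 and 260.0 CPM in fresh. Cryopreservation-1 libraries had 405.4, 282.3 and 289.2 CPM, and cryopreservation-2 libraries 151.4, 198.9 and 228.3 CPM. The gene spans chr14:20734875-20794088 on the minus strand. All 3 cryopreservation-2 libraries lay below all others. The log2 difference was -0.69 from fresh (SE 0.23, edgeR adjusted p = 0.1083) and -0.76 from cryopreservation-1 (SE 0.23, edgeR adjusted p = 0.09979), so neither was called. DESeq2 called both, at adjusted p = 0.0369 and 0.0301, and was the only 1 of 20 alternatives to do so in each comparison. Camk2g took at least 99.5% of the summed FPKM of Camk2a, Camk2d and Camk2g in each library. Camk2b, the other calmodulin kinase II gene, is not in the deposited table.

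**Figure D1:**
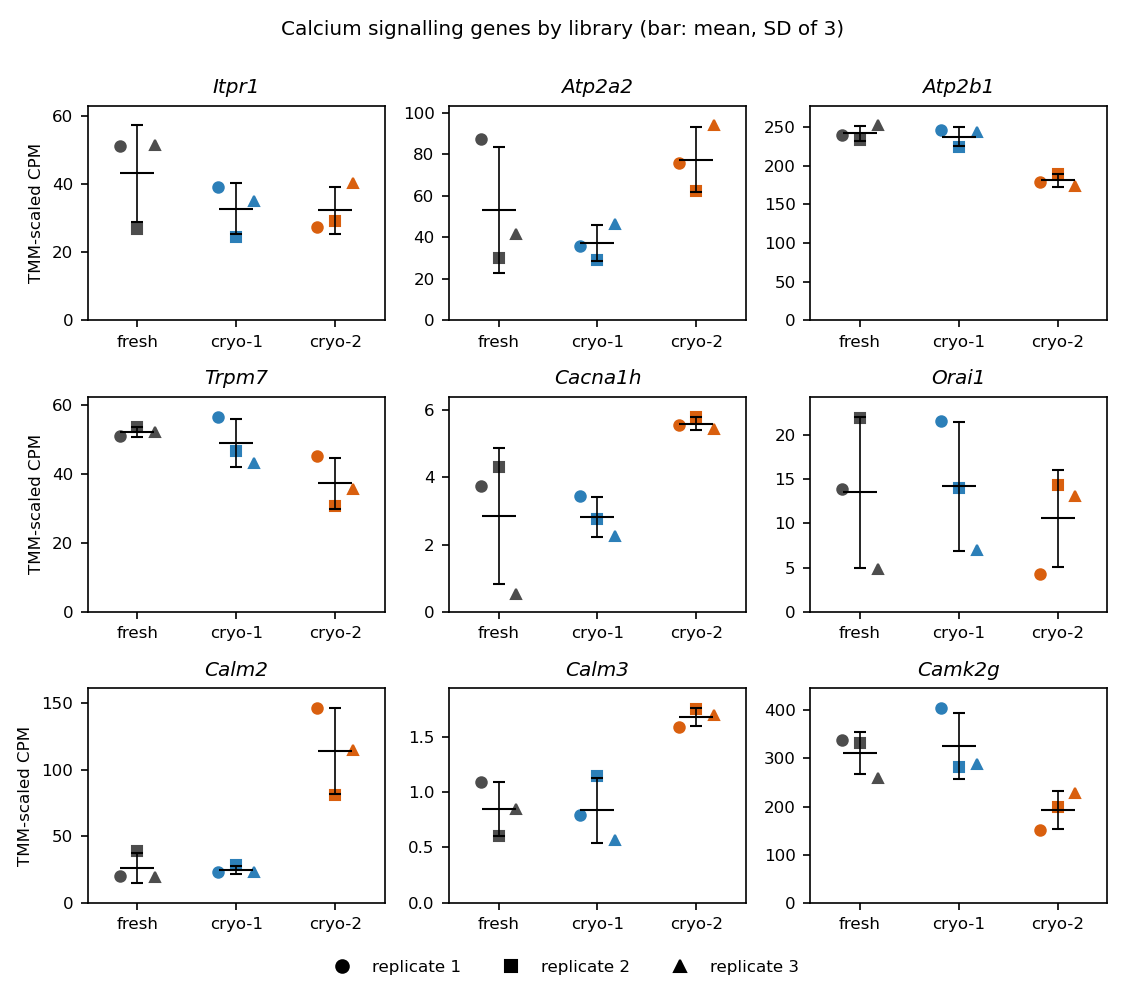
TMM-scaled CPM of each gene in each library (linear axis from 0, a separate scale per gene), for fresh, cryopreservation-1 (cryo-1) and cryopreservation-2 (cryo-2). Points are libraries, with a shape per replicate, and bars are the mean and SD of 3. Calm2 in cryopreservation-2, at 81.2 to 146.4 CPM, sits above all other libraries.

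Itpr1, the release channel, did not differ detectably between the groups. Its libraries read 51.3, 26.8 and 51.4 CPM in fresh, 39.2, 24.5 and 35.0 CPM in cryopreservation-1, and 27.6, 29.3 and 40.3 CPM in cryopreservation-2. Itpr1 spans chr6:108213096-108551109 on the plus strand, with 62 exons. The groups overlapped in every comparison. The log2 difference of cryopreservation-2 from fresh was -0.42 (SE 0.30, edgeR adjusted p = 0.4823), with a 95% interval of -1.09 to 0.26. Per length, Itpr1 in fresh stood between Itpr2 at 9.44 FPKM and Itpr3 at 0.356 FPKM, and the order was the same in the other groups. It took 17.9 ± 8.67% (SD, n = 3) of the summed FPKM of the 3 receptor genes in fresh. The share was 15.7% in cryopreservation-1 and 15.3% in cryopreservation-2.

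Atp2a2, the SERCA pump, varied widely within the fresh group. It read 87.5, 30.2 and 41.7 CPM in fresh, 35.8, 29.1 and 46.4 CPM in cryopreservation-1, and 75.7, 62.5 and 93.9 CPM in cryopreservation-2. Fresh replicate 1 lay among the cryopreservation-2 libraries, while no cryopreservation-1 library did. The log2 difference of cryopreservation-2 from cryopreservation-1 was 1.06 (SE 0.37, edgeR adjusted p = 0.1512), called by DESeq2 (adjusted p = 0.0395) and not by edgeR. Of 20 alternatives, DESeq2 was the only 1 that called this difference. From fresh it was 0.54 (SE 0.37, edgeR adjusted p = 0.4438).

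Atp2b1, the plasma membrane pump, varied little between replicates, with a coefficient of variation of 3.90 to 5.14% in each group. It read 239.0, 233.5 and 251.9 CPM in fresh, 245.5, 223.3 and 243.3 CPM in cryopreservation-1, and 178.9, 189.6 and 174.0 CPM in cryopreservation-2. The gene spans chr10:98914406-99026143 on the plus strand. Every cryopreservation-2 library was below the others. The log2 difference from fresh was -0.42 (SE 0.16, edgeR adjusted p = 0.15), not called by edgeR, and DESeq2 gave an adjusted p of 0.0472. Of 20 alternatives, DESeq2 was the only 1 that called this difference. Atp2b1 took 92.8 to 93.5% of the FPKM of the 4 plasma membrane pump genes on average in each group.

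Among the influx channels, Trpm7, a channel fused to a kinase, read 50.9, 53.7 and 52.1 CPM in fresh and 56.6, 46.7 and 43.2 CPM in cryopreservation-1. In cryopreservation-2 it read 45.3, 30.7 and 35.7 CPM. The log2 difference of cryopreservation-2 from fresh was -0.49 (SE 0.21, edgeR adjusted p = 0.2127), without overlap of libraries, and it was not called. Trpm7 spans chr2:126791565-126876230 on the minus strand. Cryopreservation-2 overlapped cryopreservation-1.

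Cacna1h was low, at 3.74, 4.30 and 0.522 CPM in fresh, 3.45, 2.75 and 2.26 CPM in cryopreservation-1, and 5.56, 5.82 and 5.43 CPM in cryopreservation-2. The gene spans chr17:25374285-25433783 on the minus strand. Fresh replicate 3, the library with the most genes at 0, held 37 counts against 299 and 301 in the other fresh libraries. The log2 difference of 0.97 from fresh (SE 0.61, edgeR adjusted p = 0.4018) did not pass. Cacna1h took 61.3 ± 23.4% (SD, n = 3) of the T-type channel FPKM in fresh and 84.9 ± 7.73% (SD, n = 3) in cryopreservation-2, and the exact permutation p of 0.1 is the smallest that 3 against 3 can give.

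Orai1, the pore of store-operated entry, was lowest in the 3 libraries that stood apart. It read 13.9, 22.0 and 4.82 CPM in fresh, 21.6, 14.0 and 6.97 CPM in cryopreservation-1, and 4.25, 14.3 and 13.1 CPM in cryopreservation-2. The gene spans chr5:123015074-123030456 on the plus strand. The lowest library of each group was the one with the most genes at 0, and Orai3 was lowest there too. The groups overlapped, with a log2 difference of -0.36 from fresh in cryopreservation-2 (SE 0.61, edgeR adjusted p = 0.8029). Orai1 shares 7 exonic bases with the antisense gene Gm2479, which held 531 to 1244 counts per library, and the strand setting of the counts is not given. Opposite-strand exon overlaps were longer for Itpr1 (181 bases with Gm44101, 108 with Gm44040), Cacna1h (158 with Tpsg1) and Atp2a2 (83 with Gm43361). Gm43361 held 0 to 2 counts, and Gm44101, Gm44040 and Tpsg1 are not in the deposited table.

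**Figure D2:**
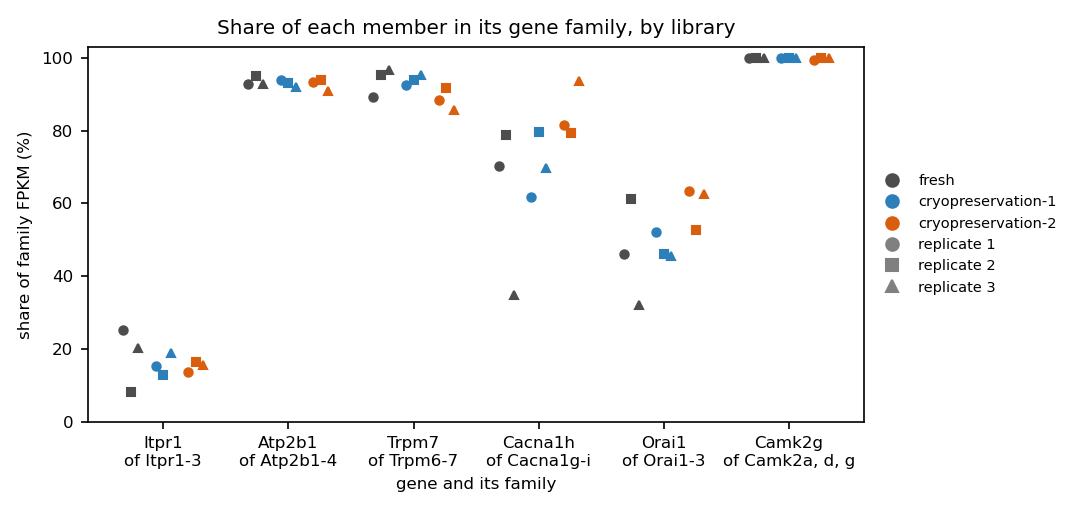
Share of each gene in the summed FPKM of its family (percent), by library, with colours for groups and shapes for replicates. Camk2g, Atp2b1 and Trpm7 take most of their families, Itpr1 takes 8.29 to 25.2%, and Cacna1h is at 34.7% in fresh replicate 3. The lowest adjusted exact permutation p of any share was 0.2667. With 3 against 3 libraries the smallest unadjusted p is 0.1, so this test could not pass 0.05 for any share.

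Per length, Camk2g was the most abundant member in fresh (40.7 ± 6.34 FPKM, SD, n = 3) and in cryopreservation-1 (44.6 ± 9.13 FPKM, SD, n = 3), above Calm2 without overlap. In cryopreservation-2, Calm2 at 71.2 ± 17.8 FPKM (SD, n = 3) stood above Camk2g at 27.9 ± 6.97 FPKM (SD, n = 3), again without overlap. Calm2 and Atp2b1 overlapped in fresh and cryopreservation-1. Trpm7, Itpr1 and Calm3 followed in that order in every group, each without overlap with the next. Cacna1h was last and overlapped Calm3 in fresh and cryopreservation-1 but not in cryopreservation-2.

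By comparison, the first method left no member called. In cryopreservation-1 against fresh, 0 of 9 members were called by edgeR, as for all genes, of which 0% were called. None of the 9 had an unadjusted p under 0.05, against 4.72% of all genes tested, and all 9 overlapped, against 6.37% of genes higher and 3.72% lower without overlap. DESeq2 called 43 genes and no member. The 95% intervals were wide for the low genes, from -1.36 to 1.33 (log2) for Cacna1h, and narrow for Atp2b1, from -0.37 to 0.32, so a 2-fold change of Cacna1h in either direction lies inside its interval.

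In cryopreservation-2 against fresh, 1 member of 9 was called higher, where 3.18% of all genes were, and 0 were called lower, where 2.20% were. Without overlap of libraries, 3 members were higher and 3 lower, against 15.1% and 12.4% of all genes. The members' median log2 difference was -0.36, and that of all genes -0.06. In cryopreservation-2 against cryopreservation-1, 1 member was called higher (1.50% of all genes) and 0 lower (1.25%), and 4 were higher and 2 lower without overlap (13.8% and 15.2% of all genes). The 2 comparisons share the cryopreservation-2 libraries.

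**Figure D3:**
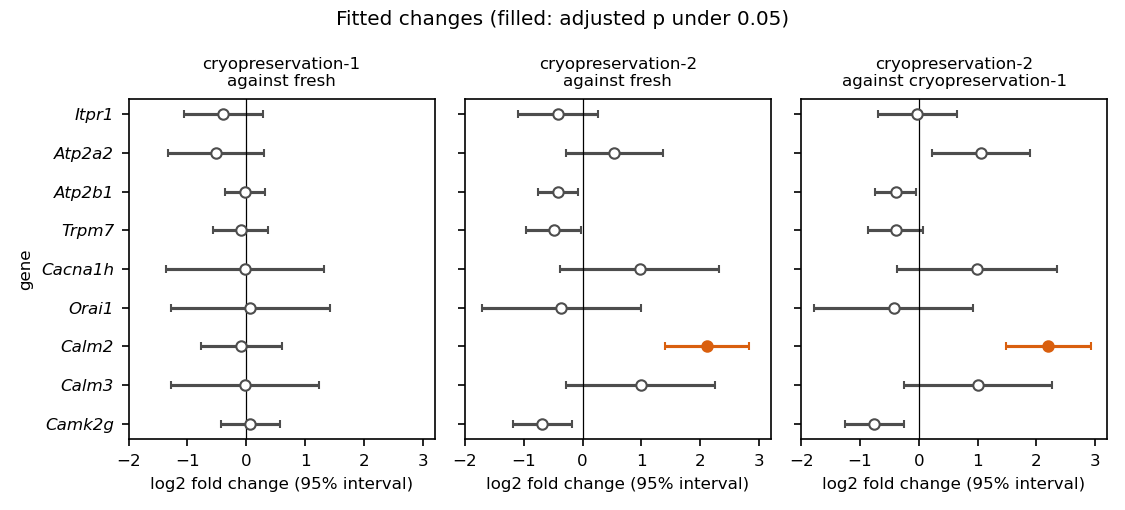
Log2 fold change with its 95% interval for each gene (rows) in the 3 comparisons (panels), from edgeR's fit over all libraries. Filled points passed an adjusted p of 0.05. Calm2 is filled in both comparisons with cryopreservation-2, at 2.12 and 2.20.

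The rest of the pathway was read from 8 lists of 112 genes, of which 94 were tested, members included. Of the 85 others, 0 were called in cryopreservation-1 against fresh. In cryopreservation-2, 2 were called higher and 1 lower against fresh, where 3.18% and 2.20% of all genes were, and 1 higher and 2 lower against cryopreservation-1, where 1.50% and 1.25% were. These counts are near those shares and are no result about the lists. Smdt1, a subunit of the mitochondrial calcium uniporter, read 3.23, 4.50 and 4.82 CPM in fresh and 15.2, 18.4 and 11.7 CPM in cryopreservation-2, a log2 change of 1.85 (SE 0.29, edgeR adjusted p = 0.01009). Vdac3, an outer membrane channel, read 27.2, 25.0 and 22.3 CPM in fresh and 114.6, 66.4 and 63.4 CPM in cryopreservation-2. It rose by 1.71 on the log2 scale (SE 0.27, edgeR adjusted p = 0.01009). Vdac1, of the same family, fell by 0.82 on the log2 scale (SE 0.20, edgeR adjusted p = 0.03992), from 85.0 ± 11.9 CPM to 48.2 ± 5.19 CPM (SD, n = 3). Against cryopreservation-1, Vdac3 was again higher (log2 1.45, edgeR adjusted p = 0.02442), Vdac1 lower (log2 -0.89, edgeR adjusted p = 0.04242) and Itpk1, an inositol phosphate kinase, lower (log2 -1.30, edgeR adjusted p = 0.04715), while Smdt1 was not called (log2 1.20, edgeR adjusted p = 0.05503). Against fresh, the calls of Smdt1, Vdac3 and Vdac1 were kept in 17, 19 and 4 of 20 alternatives. All 3 were lost with the replicate block in the 2 groups alone (edgeR adjusted p = 0.144, 0.118 and 0.308). That of Smdt1 was also lost with the GC content and length offset (log2 1.40, edgeR adjusted p = 0.0964). Without the 3 libraries that stood apart it was lost too (edgeR adjusted p = 0.0521). Against cryopreservation-1, the calls of Vdac3, Vdac1 and Itpk1 were kept in 14, 3 and 5 of 20. All 3 were lost without the 3 libraries that stood apart (edgeR adjusted p = 0.0706, 0.219 and 0.125).

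**Figure D4:**
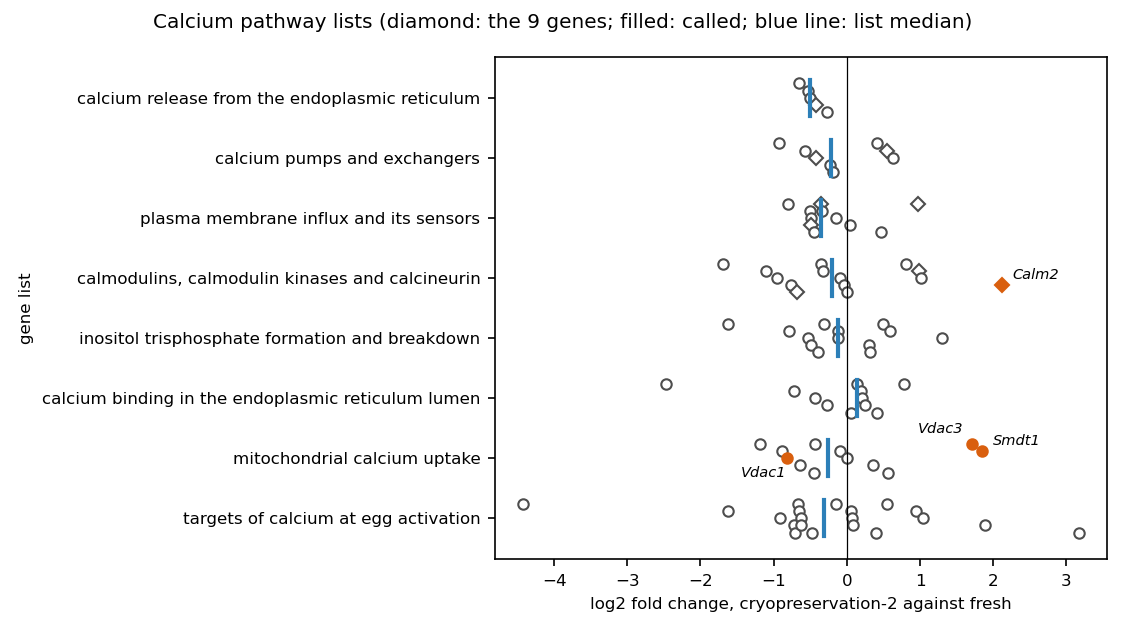
Log2 fold change of cryopreservation-2 against fresh for each tested gene of 8 lists (rows). Diamonds are the 9 genes, filled symbols passed an adjusted p of 0.05, and blue lines are list medians. Calm2, Smdt1 and Vdac3 lie to the right and Vdac1 to the left.

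The genes most like Calm2 across the 9 libraries were taken from 4711 genes with a mean of at least 5 FPKM, by the root mean square difference of log2 levels after centring. They were the lincRNA Gm47407 (0.22), Pdcl3 (0.24) and the lincRNA Gm43269 (0.29). Pdcl3, chosen for this likeness, had a mean of 26.8 CPM in fresh and 97.5 CPM in cryopreservation-2. For Itpr1 they were Mcm3ap (0.13), Scaf8 (0.14) and Synj1 (0.14).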

How the data were processed

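Poly(A) RNA of mouse oocytes was sequenced with a dUTP (strand-marking) protocol, per the labels' protocols. The submitters' processing notes name cutadapt 1.9, HISAT2 2.0.4, StringTie 1.3.4d and GRCm38; how reads were counted, and with which strand setting, is not given in the sources used here. In 1 table, the authors deposited counts and FPKM per gene, per the file headers. The headers do not say how the counts were made, and they were used here as raw counts. The labels do not tie replicates to separate animals or pools; p-values therefore describe the spread of these libraries, possibly technical. Within groups, counts of any 2 libraries differed beyond sampling noise (chi-square per degree of freedom 64.5 to 247). Members and lists were chosen with earlier results of these data known; 1 of the rule's 10 genes is not reported here. All 9 members are named, with the other listed genes that were called. Itpr2, Itpr3, Orai3 and Prkce, which were not called, were named after their values were seen. Camk2a, Camk2b and Camk2d, none of them called, are named as the family of Camk2g.

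Counts were filtered with filterByExpr (minimum count 10, minimum total 15), scaled by TMM and fitted in edgeR 4.0.16 (R 4.3.3), with 9 libraries in 1 fit and Benjamini-Hochberg adjustment over 17545 genes. The common biological coefficient of variation was 0.662. A count of 0 allows up to 3 counts, 0.0372 to 0.0575 CPM; such limits cover counting error only. Alternatives were DESeq2 1.42.0, limma 3.58.1 on log2(FPKM + 1), other filters and scalings, 2 groups alone, a replicate block, a GC content and length offset and leaving out libraries. Family shares used exact two-sided permutation tests, adjusted over 8 families. Atp2a2 was the only gene of its family in the deposited table, so its share was 100% in every library by construction. Its test could show no difference, yet it counts among the 8.

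Same-numbered fresh and cryopreservation-1 libraries deviated together (r = 0.172, 0.239 and 0.294), from the data and not the labels. Differently numbered libraries of these 2 groups had r from -0.232 to 0.052. Same-numbered pairs with cryopreservation-2 did not all deviate together (r as low as -0.301). Across all groups, the highest r, 0.314, joined differently numbered libraries, cryopreservation-1 replicate 3 and cryopreservation-2 replicate 1. Both are among the libraries that stood apart, as are fresh and cryopreservation-1 replicate 3, at 0.294. What these libraries share was not tested.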

Additional observations from a re-analysis of the deposited data

How the results depend on the processing

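The members with the fewest counts were Calm3, at 35 to 102, and Cacna1h, at 37 to 326; what sets their SE was not tested, and Orai1 had as large an SE at 222 to 1669 counts. The call of Calm2 was kept in 18 of 20 alternatives against fresh (adjusted p from 3.43e-09 to 0.143) and in 16 of 20 against cryopreservation-1 (from 6.31e-10 to 0.0795). It was lost with the 3 libraries with the most genes at 0 left out, at log2 1.83 and 2.05, and with the replicate block in the 2 groups alone, at 2.22 and 2.17. Both of those alternatives were chosen after seeing the data. Against cryopreservation-1 its log2 fold change was 2.05 to 2.42 when libraries were left out in turn, and the number of members called higher was 0 to 1.

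The replicate block in the fit over all libraries lowered the genes called from 944 to 500 in cryopreservation-2 against fresh and from 483 to 230 against cryopreservation-1. In the 2 groups alone, the block left 0 and 48 genes called, and 0 members called higher in both, and it gave 1 gene in cryopreservation-1 against fresh. Replicate numbers pair cryopreservation-2 with the other groups only as numbers, and the block changed no member's call in cryopreservation-1 against fresh.

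In cryopreservation-1 against fresh, 43 genes were called by DESeq2, 1 in the 2 groups alone and 0 to 1 when libraries were left out in turn. In cryopreservation-2 against fresh, the 944 calls became 2447 with DESeq2, 1962 with limma on log2(FPKM + 1), 1681 for genes whose mean FPKM reached 1, 429 in the 2 groups alone, 194 without the 3 libraries, and 231 to 786 with libraries left out in turn. Of these leave-outs, the one without fresh replicate 3 gave the fewest. In cryopreservation-2 against cryopreservation-1, the 483 calls became 1868 with DESeq2, 1397 with limma, 743 with a pseudocount of 0.1, 1255 for genes whose mean FPKM reached 1, 725 with the GC content and length offset, 0 without the 3 libraries and 15 to 480 with libraries left out in turn. DESeq2 called 2 members lower in cryopreservation-2 against fresh, and 2 higher and 1 lower against cryopreservation-1. The cause was not tested. The split of 558 higher and 386 lower calls in cryopreservation-2 against fresh was 1510 and 452 with limma and 547 and 654 with the offset. Against cryopreservation-1 the split of 263 and 220 was 310 and 174 with DESeq2's size factors in edgeR and 481 and 244 with the offset. The offset moved the median of all genes in cryopreservation-1 against fresh from 0.02 to -0.12.

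The differences that changed sign were all uncalled. In cryopreservation-1 against fresh, Atp2b1 was 0.04 under each limma setting and 0.03 with the offset. Trpm7 was 0.00 with the offset, Orai1 -0.21 and Camk2g -0.16. Cacna1h was 0.02 and 0.20 with limma at pseudocounts of 1 and 0.1, 0.21 with the replicate block and 0.36 with the block in the 2 groups alone. Calm2 was 0.05 under each limma setting, and Calm3 0.00 and 0.01 at pseudocounts of 1 and 0.1. Without the 3 libraries, Orai1 was -0.04 and Calm3 0.16. Vdac1 was -0.20 with the offset and -0.08 without the 3 libraries. With libraries left out in turn, Atp2a2 ran from -0.80 to 0.05, Atp2b1 from -0.05 to 0.02, Cacna1h from -0.51 to 0.40, Calm2 from -0.25 to 0.32, Calm3 from -0.32 to 0.20, Camk2g from -0.12 to 0.16 and Orai1 from -0.37 to 0.61. Orai1 ran from -0.76 to 0.18 in cryopreservation-2 against fresh and from -0.76 to 0.03 against cryopreservation-1. Itpr1 in cryopreservation-2 against cryopreservation-1 was 0.02 with DESeq2 and with its size factors, 0.01 with no filter, 0.03, 0.05 and 0.03 under the limma settings, 0.00 with the replicate block, 0.14 with the offset, 0.26 without the 3 libraries and -0.20 to 0.15 with libraries left out in turn.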

Other observations

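Prkce, a protein kinase C named after its values were seen, was at 5.26 ± 0.89 CPM (SD, n = 3) in fresh, 5.88 ± 1.12 CPM (SD, n = 3) in cryopreservation-1 and 0.243 ± 0.421 CPM (SD, n = 3) in cryopreservation-2. In cryopreservation-2 the SD exceeded the mean, so these libraries were uneven at a very low level. The log2 difference of Prkce from fresh was -4.43 (SE 1.24, edgeR adjusted p = 0.06678), and it was not called.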
